A study of Homo sapiens with 28 samples.

Results

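The 78 genes described here encode proteins of the mitochondrial ribosome. They are the genes of the deposited count table that are annotated as protein-coding and whose symbol is MRPL or MRPS followed by a number, 78 of the 58735 genes listed. Of these, 49 carry an MRPL and 29 an MRPS symbol. By the place of their products, 51 belong to the large subunit and 26 to the small subunit, while MRPS36 was assigned to neither because its product is known as a part of the 2-oxoglutarate dehydrogenase complex. The products of 46 have a bacterial homologue and those of 31 are specific to mitochondria. The genes lie on 21 chromosomes.

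RNA was sequenced from the breast cancer line MDA-MB-231, of human triple-negative origin and listed as an epithelial cell type. The control line carried an empty vector (EV) and the other line overexpressed Tpm2.1, a tropomyosin that coats actin filaments and is a product of TPM2; both were kept in medium with puromycin. What drives the transgene is not given in the sources used here. RNA was taken after 6 hours on an adhesive surface (attached), or after 5 hours, 1 day, 2 days or 4 days of suspension in ultra-low attachment plates, where cells deprived of a surface may die by anoikis, a form of apoptosis. The Tpm2.1 cells from suspension were separated at each time with beads carrying Annexin V, which binds phosphatidylserine on dying cells, into an apoptotic and a non-apoptotic fraction. EV cells and attached cells are not described as separated, so line and separation cannot be told apart wherever the lines are compared in suspension. Each of the 14 groups had 2 libraries, called biological replicates in the labels without word of how the cultures were kept apart, so p-values measure the spread between these libraries, which may be technical. How many clones each line comes from is not given in the sources used here.

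Mitochondria hold a ribosome of their own that makes the hydrophobic core proteins of the respiratory chain from messenger RNAs of the mitochondrial genome. Its ribosomal RNAs are made inside the organelle, whereas all its proteins are encoded in the nucleus, made in the cytosol and imported. Nuclear genes of this kind are known to be under transcription factors such as NRF1, the ETS family factor GABP, YY1 and MYC, with coactivators of the PGC-1 family.

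RefSeq promoter windows (GRCh38.p14, 250 bases before to 50 bases after a start) were listed for 69 of the 78 genes, in 85 windows. Letters were searched on both strands, overlapping matches included. CCGGAAG, the letters of an ETS site, occurred in 38.8% of the 85 windows, against 12.9% of 21021 windows of protein-coding genes and 10.26% of 35116 windows in all. AAGATGGC, the letters of a YY1 site, occurred in 27.1% against 3.60% and 2.89%. An NRF1 core, GCGCA and GCGC with any base between them, occurred in 11.8% against 7.40% and 5.78%, and the E-box CACGTG in 10.6% against 8.40% and 7.26%. Windows of the same gene overlap, and a match of letters is a description and no evidence of binding. The following stretches are shown, without bases that GENCODE places in an exon, where at least 190 bases were left. Among members with such a stretch that holds the ETS, E-box or NRF1 letters, those with the largest falls in suspended EV cells were taken, and MRPS6, which rose most among members of at least 10 CPM and held no match. Members with larger falls than MRPL22 also held the E-box in a window (MRPL37, MRPL14, MRPS2). Those with larger falls than MRPL36 that held the NRF1 core were MRPL14, MRPL57, MRPS9, MRPL30, MRPL17 and MRPL45. The first window listed for each of them left no stretch of that length, or none with the match in it. Matches are in capitals. They are MRPL3 (chr3:131502984-131503221, minus strand, an ETS match that opens 32 bases before the start), MRPL22 (chr5:154940823-154941069, plus strand, an E-box), MRPL36 (chr5:1799896-1800087, minus strand, an NRF1 core) and MRPS6 (chr21:34073328-34073522, plus strand). The stretches of MRPL36 and MRPS6 lie inside the genes as the count table places them (chr5:1798386-1801366 and chr21:34073224-34143034). Each of these precedes a RefSeq start within the gene.
MRPL3: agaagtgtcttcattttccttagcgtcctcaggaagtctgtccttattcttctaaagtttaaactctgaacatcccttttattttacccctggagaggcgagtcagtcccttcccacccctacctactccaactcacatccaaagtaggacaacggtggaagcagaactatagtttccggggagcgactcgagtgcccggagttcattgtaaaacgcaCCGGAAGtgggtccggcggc
MRPL22: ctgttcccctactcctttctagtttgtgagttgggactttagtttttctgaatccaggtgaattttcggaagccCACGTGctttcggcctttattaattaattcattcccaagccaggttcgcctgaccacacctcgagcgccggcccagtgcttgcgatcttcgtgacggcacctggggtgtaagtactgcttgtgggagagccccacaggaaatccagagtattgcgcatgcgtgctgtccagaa
MRPL36: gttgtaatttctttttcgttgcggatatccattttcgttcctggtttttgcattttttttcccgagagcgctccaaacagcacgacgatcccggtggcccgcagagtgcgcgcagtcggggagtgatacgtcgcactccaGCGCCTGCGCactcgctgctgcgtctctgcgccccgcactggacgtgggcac
MRPS6: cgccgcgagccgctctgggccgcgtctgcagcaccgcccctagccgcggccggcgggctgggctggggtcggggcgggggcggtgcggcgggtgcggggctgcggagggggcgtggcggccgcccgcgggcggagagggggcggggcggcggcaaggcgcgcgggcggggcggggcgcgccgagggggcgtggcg
Response and letters were also set side by side. Members with an ETS match in any window had a median log2 fold change of -0.46 in suspended against attached EV cells (30 genes), and those without had -0.49 (39 genes). For the YY1 letters the medians were -0.43 (21 genes) and -0.52 (48 genes), for the NRF1 core -0.38 (9 genes) and -0.51 (60 genes), and for the E-box -0.54 (9 genes) and -0.49 (60 genes).

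Library totals ranged from 13043529 to 27416335 counts. TPM2 stood at 22.7 to 46.1 CPM, the unit of counts scaled to library size and composition, in the 10 EV libraries and at 2460 to 7860 CPM in the 18 libraries of the Tpm2.1 line. The epithelial cadherin gene CDH1 had 0 to 7 counts per library, while KRT18 stood at 102 to 265 CPM and the mesenchymal gene VIM at 743 to 1530 CPM. Of the leukocyte markers PTPRC, CD3E and CD68, the highest count in any library was 7. The apoptotic libraries of 4 days stood apart from all others: they had 18430 genes with a count on average, against group means from 21520 up to 24190 elsewhere, and results that rest on them are given separately. All 78 members passed the count filter and were tested, among 17191 genes, with edgeR's quasi-likelihood test and Benjamini-Hochberg adjustment over all genes, and a gene is said to rise or fall at an adjusted p under 0.05. Fold changes are given as log2 with the standard error (SE) that the test implies.

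Per gene length, the members differed widely in level. By mean FPKM over the 28 libraries, MRPS10 (69.7) and MRPS34 (67.7), both of the small subunit, were highest, followed by MRPL14 (47.7), MRPS26 (47.3) and MRPL49 (44.3). The lowest were MRPS24 (0.847), MRPL38 (1.26), MRPL46 (1.51), MRPS18C (2.23) and MRPS17 (2.23). Another gene overlapped MRPS24, MRPL38, MRPL46 and MRPS17 on the same strand and MRPS18C on the other strand. How reads in overlaps were counted is not given in the sources used here, so these low levels are uncertain. By the gene length of the count table the members were short, with a median of 2539 bases against 4299 over all genes tested. The longest transcripts of the members were of ordinary composition, with a median GC content of 47.66% against 48.09%. Genes on the other strand overlapped 38 members, and the strand of counting is not given in the sources used here, so reads of such pairs cannot be told apart. On the same strand another gene overlapped 23 members, MRPL12 and MRPS24 among them. In 8 of the members a gene on the same strand had a sizeable count of its own.

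The summed level of the 78 genes was highest in attached cells and lower in every suspended group. It stood at 4711 ± 3.75 CPM in attached EV cells and at 4470 ± 22.9 CPM in attached Tpm2.1 cells (SD, n = 2 here and for all groups below). In suspended EV cells it was 3743 ± 8.2 CPM after 5 hours, 3428 ± 6.08 after 1 day, 3115 ± 73.6 after 2 days and 3306 ± 124 after 4 days, or 79.4%, 72.8%, 66.1% and 70.2% of the attached level. In the non-apoptotic Tpm2.1 fraction it was 3982 ± 28.1, 3706 ± 14.6, 3682 ± 34.2 and 3140 ± 69.2 CPM at the same times, or 89.1%, 82.9%, 82.4% and 70.2% of attached Tpm2.1 cells. The apoptotic fraction stood at 3828 ± 57.1, 3293 ± 50.6, 3105 ± 84.4 and 2943 ± 49.2 CPM. In the order of the 14 groups the EV group of 2 days, the apoptotic group of 2 days and the non-apoptotic group of 4 days were neighbours that did not differ beyond their spread, and neither did the EV group of 4 days and the apoptotic group of 1 day. The non-apoptotic groups of 1 and 2 days also overlapped, with 3695 and 3716 CPM against 3658 and 3706 CPM. Without scaling for composition, that is by library totals alone, the median of all genes moved from 0.06 to 0.21 in suspended against attached EV cells and from 0.00 to -0.16 in apoptotic against non-apoptotic cells at 4 days, so levels and fold changes are relative to the scaling. In bulk RNA, fewer cells with these transcripts and less of them per cell cannot be told apart.

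**Figure D1:**
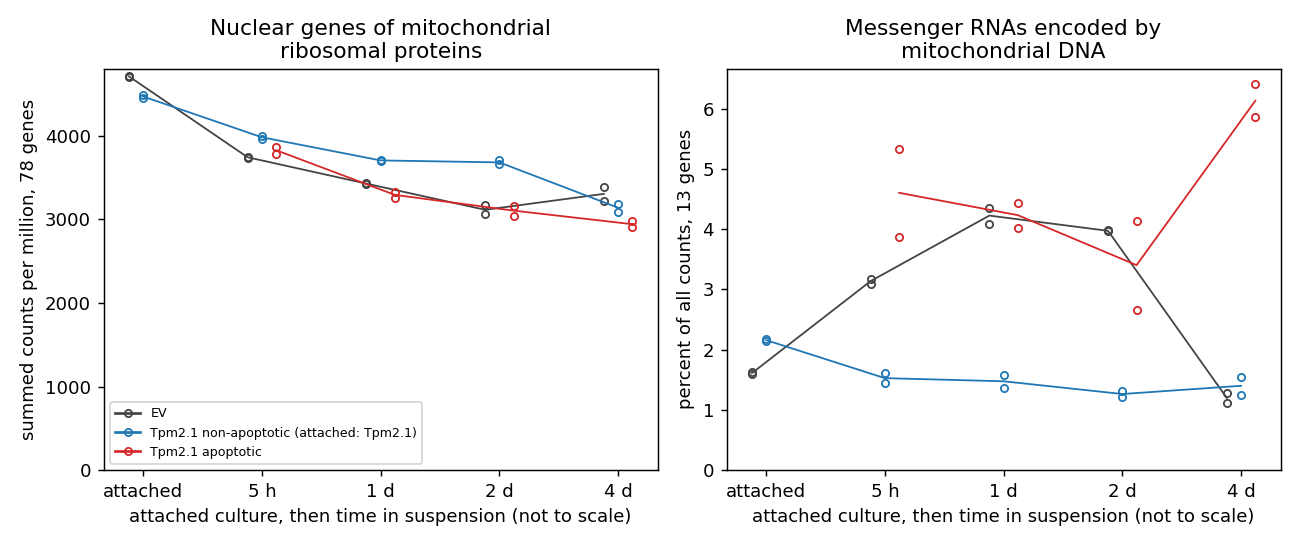
Summed CPM of the 78 members (left) and the percent of all counts in the 13 messenger RNAs of the mitochondrial genome (right), for attached cells and 4 times in suspension; circles are libraries and lines join group means. Summed member levels are lower in all suspended libraries than in attached ones, while the mitochondrial messenger RNAs take different courses in the EV, non-apoptotic and apoptotic series.

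In the fit of all libraries, the lines differed in few members in attached cells. Tpm2.1 cells were higher than EV cells in 2 members and lower in 10, or 15.4% of the 78 against 20.5% of all genes called, and the members' median was -0.08 against 0.00 over all genes. MRPS23 (ENSG00000181610, hg38 chromosome 17, 57834781 to 57850056), a mitochondria-specific protein of the small subunit, stood at 75.4 and 76.6 CPM in EV cells and at 47.2 and 50.8 CPM in Tpm2.1 cells, a log2 fold change of -0.63 ± 0.073 (SE, edgeR adjusted p = 1.79e-08). MRPL54 fell by 0.52 and MRPL45, which tethers the ribosome to the inner membrane at its exit tunnel, fell by 0.35. MRPL10, which carries the stalk of the large subunit, was higher by 0.28 and MRPS10 by 0.20. The libraries of MRPS23, MRPL54, MRPL45, MRPL10 and MRPS10 did not overlap between lines. The call of MRPS10 was lost without EV replicate 1, without Tpm2.1 replicate 2 and without the count filter, and the fall of MRPS33 (-0.30) was lost when any of the 4 libraries was left out. The counts depended on the fit, with 6 higher and 22 lower when the 4 attached libraries were fitted alone and 18 lower when the apoptotic libraries of 4 days were left out of the fit. A GC correction gave 23 lower, a gene length correction 17, and only 1 member was called higher without EV replicate 1, without Tpm2.1 replicate 2 or without the filter. Shares of all genes called were not taken for these other fits, so the counts show only how the members' calls moved.

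Suspension of EV cells went with lower levels of most members. Over the mean of the 4 times 63 of 78 fell and 4 rose, or 85.9% called against 66.3% of all genes (32.2% of all genes fell), with a median log2 fold change of -0.50 against 0.06 over all genes. Of these, 4 fell by more than 2-fold, beside 5.92% of all genes, and no member rose that far. The largest falls were in MRPS28 (-1.12), MRPL3 (-1.05), MRPS12 (-1.04), MRPL37 (-1.01) and MRPL4 (-0.94). MRPS28 was low, with a mean of 10.1 CPM in attached and 4.66 CPM in suspended EV cells. The large subunit had 44 falls and 3 rises among 51 genes (median -0.49) and the small subunit 19 falls and 1 rise among 26 (median -0.51). Members with a bacterial homologue had a median of -0.52 and mitochondria-specific ones -0.43.

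MRPL3 (ENSG00000114686, chromosome 3, 131462212 to 131502983), a large subunit protein near the peptidyl transferase centre whose promoter stretch with an ETS match is shown above, stood at 154 and 158 CPM in attached EV cells. It stood at 108 and 96.2 CPM after 5 hours, 81.3 and 77.3 after 1 day, 61.7 and 60.8 after 2 days and 69.3 and 61.8 after 4 days. Every suspended library lay below both attached ones, and the change over the mean of times was -1.05 ± 0.046 (edgeR adjusted p = 7.04e-22). MRPS12 (ENSG00000128626, chromosome 19, 38930548 to 38933162), a protein of the decoding site of the small subunit, went from 73.3 and 69.4 CPM to 40.8 and 43.2, then 29.3 and 32.9, then 29.8 and 30.7, and stood at 38.4 and 33.8 CPM at 4 days. Its level was lowest at 1 and 2 days, where the libraries overlapped. SARS2, the mitochondrial seryl-tRNA synthetase, whose transcripts start beside MRPS12 on the other strand and which was looked up after the values were seen, stood at 1.34 to 3.56 CPM in suspended EV cells and changed by -0.16 ± 0.26 (edgeR adjusted p = 0.615). MRPL37 (ENSG00000116221, chromosome 1, 54184041 to 54225464), a mitochondria-specific protein, stood at 171 and 170 CPM in attached EV cells, at 72.7 and 72.0 CPM after 2 days and at 75.0 and 75.2 CPM after 4 days. SSBP3, on the other strand, had 40.1% of the counts of MRPL37 and changed by -0.11.

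Most falls passed the test as early as 5 hours. Single times gave 55 falls and 5 rises at 5 hours (54.7% of all genes called), 58 and 6 at 1 day (63%), 64 and 3 at 2 days (64.6%) and 62 and 4 at 4 days (59.5%), with member medians of -0.33, -0.43, -0.57 and -0.53. Falls passed the test at all 4 times in 48 members, against 17.2% of all genes. Scaled by library totals alone, the 5 hour count was 31 falls and 9 rises. From 5 hours to 4 days 37 members fell further and 10 rose (60.3% called against 52.8% of all genes; 6 rises under library totals).

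Members that rose in suspended EV cells shared their loci with other expressed genes, but so did members that fell, such as MRPL37 and MRPL28. Among all members, 23 had an overlapping gene of sizeable count on the other strand and 8 had one on the same strand. MRPS6 (ENSG00000243927, chromosome 21, 34073224 to 34143034), of the small subunit, stood at 28.1 and 30.1 CPM in attached EV cells and at 42.4 and 41.2, 44.2 and 43.9, 48.8 and 51.7, and 38.4 and 43.8 CPM at the 4 times, a rise of 0.60 ± 0.063 (edgeR adjusted p = 9.98e-11) with no overlap between attached and suspended libraries. SLC5A3, the myo-inositol transporter, shares its first exon with MRPS6 on the same strand, had 635% of its counts and rose by 2.44, from 86.7 CPM to between 281 and 757 CPM by group mean. How reads of the shared exon were split is not given in the sources used here, so the rise of MRPS6 is uncertain. MRPL38 (0.94) and MRPL53, which went from 4.24 and 3.85 CPM to between 6.09 and 9.64 CPM, rose at levels below 10 CPM and are named after their values were seen. CCDC142 overlaps MRPL53 on the same strand with 332% of its counts and rose by 0.81. MRPL34 rose by 0.19, a call that was lost without the count filter, with a GC or length correction, with DESeq2, without attached replicate 1 and over the times before 4 days.

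The non-apoptotic Tpm2.1 fraction also had more falls than rises. It was separated with beads and attached cells are not described as separated, so suspension and separation cannot be told apart here. Against attached Tpm2.1 cells 48 members fell and 7 rose over the mean of 4 times, or 70.5% called against 61.4% of all genes (30.6% of all genes fell), with a median of -0.24 against 0.03. MRPL4 (ENSG00000105364, chromosome 19, 10251901 to 10260045), which lines the exit tunnel, went from 75.1 and 71.0 CPM in attached cells to 40.3 and 38.6 after 5 hours, 40.2 and 41.3 after 1 day, 39.1 and 36.1 after 2 days and 31.4 and 36.3 after 4 days, a change of -0.95 ± 0.085 (edgeR adjusted p = 1.86e-12). MRPS34 changed by -0.90, MRPS12 by -0.78, MRPL37 by -0.77, MRPL54 by -0.71 and MRPL3 by -0.69. Of the rises, MRPS33 (ENSG00000090263, chromosome 7, 141002610 to 141015228) was largest among members of at least 10 CPM. It stood at 16.4 and 17.3 CPM in attached Tpm2.1 cells and at 22.0 to 25.8 CPM in the 8 suspended libraries, all above the attached ones, a change of 0.50 ± 0.084 (edgeR adjusted p = 1.97e-06). MRPS36, the dehydrogenase component, rose by 0.34, MRPS6 by 0.23, MRPL45 by 0.21 and MRPS21 by 0.21. The call of MRPS21 was lost without the filter, with DESeq2, with a GC or length correction and without any of 4 single libraries, and without attached replicate 1 there were 4 rises in all.

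The count of falls was highest at 4 days. Counts were 31 falls and 7 rises at 5 hours (45.2% of all genes called), 42 and 8 at 1 day (54.8%), 41 and 8 at 2 days (56.8%) and 58 and 4 at 4 days (62.4%), with member medians of -0.13, -0.24, -0.21 and -0.44. Library totals alone gave 26 falls and 15 rises at 5 hours, 29 and 13 at 1 day and 27 and 16 at 2 days. Falls passed at all 4 times in 21 members, against 14.3% of all genes. From 5 hours to 4 days 48 members fell and 8 rose (71.8% called against 54.9%). The 8 rises became 3 under library totals or without the filter, 5 with DESeq2 or a GC correction, 5 without either 5 hour library and 4 without the first 4 day library.

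**Figure D2:**
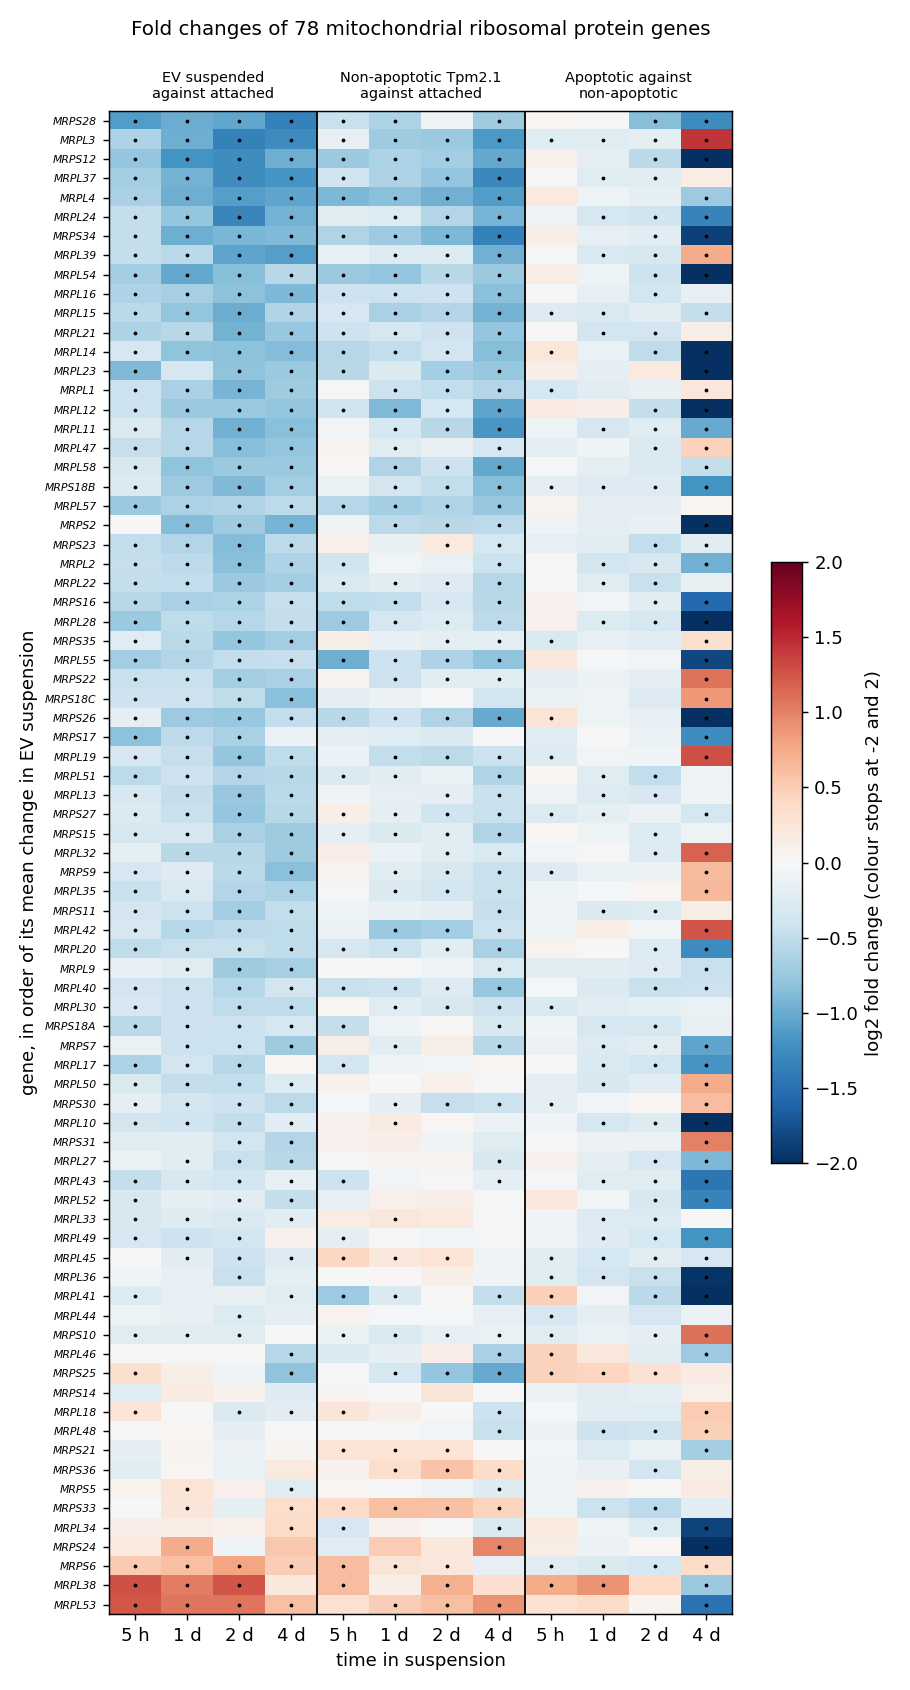
Log2 fold changes of the 78 members at each time, for suspended against attached EV cells, non-apoptotic against attached Tpm2.1 cells and apoptotic against non-apoptotic cells; dots mark an adjusted p under 0.05 and colours stop at -2 and 2. Blue dominates the EV columns from 5 hours on, the non-apoptotic columns are palest at 5 hours, and the last column, apoptotic cells at 4 days, holds the strongest colours in both directions.

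The responses of the lines, which share no library, ranked the members alike: Spearman's rho between both columns of log2 fold changes was 0.80 over 78 genes and 0.70 over all genes tested, a description over genes that are not independent and share length, composition and overlapping neighbours across the lines. Falls passed in both lines in 47 members, against 24.2% of all genes, and rises in 3, against 22.1%. MRPL45 was the only member called in opposite directions over the mean of times, at -0.22 in EV and 0.21 in non-apoptotic cells. At 4 days it stood below attached cells in both lines. In EV it had 75.8 and 66.5 against 86.0 and 83.7 CPM, and in non-apoptotic cells 61.2 and 65.6 against 67.3 and 66.1 CPM.

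The size of the response differed between lines when tested directly. The difference between lines in suspension, as the mean of 4 times, minus that in attached cells was positive in 35 members and negative in 3. This was 48.7% called against 33.5% of all genes, of which 17% were positive, with a median of 0.21 against -0.02. Without Tpm2.1 attached replicate 2 the positive count was 22. The change was not tested at single times, and at 4 days the members' sum stood at 70.2% of attached cells in both lines. MRPS28 (0.65), MRPS23 (0.57), MRPL47 (0.49), MRPS35 (0.46) and MRPL45 (0.43) were among the positive members. MRPS28 was low, at 8.0 to 10.5 CPM in attached libraries and 3.6 to 7.9 CPM in suspended EV and non-apoptotic ones. MRPS25 (-0.43), MRPS6 (-0.37) and MRPL34 (-0.32) were the negative members. Across the members, Spearman's rho between GC content and this change was -0.41. MRPS23 itself did not keep one order of the lines in suspension. In non-apoptotic against EV cells it did not pass the test at 5 hours (-0.04), was lower at 1 day (-0.20), higher at 2 days (0.43), with 55.9 and 56.1 against 40.3 and 42.8 CPM, and lower at 4 days (-0.45), with 40.3 and 36.9 against 55.0 and 50.6 CPM. Over the mean of times the difference was -0.07 (edgeR adjusted p = 0.162).

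Set directly against suspended EV cells, non-apoptotic Tpm2.1 cells were higher in 37 members and lower in 13 (64.1% called against 60.5%, with 28.6% of all genes higher), with a median of 0.11 against -0.03. MRPL10 (ENSG00000159111, chromosome 17, 47823272 to 47831534) stood at 44.3 to 55.6 CPM in the 8 EV libraries and at 69.2 to 89.4 CPM in the 8 non-apoptotic ones, with no overlap and a difference of 0.69 ± 0.037 (edgeR adjusted p = 1.25e-18). MRPL10 and MRPS35 were higher at all 4 times, as were 6.36% of all genes. MRPS18A (0.42), MRPS9 (0.42), MRPS18C (0.40) and MRPS22 (0.39) followed. MRPL54 (-0.45), MRPS25 (-0.37), MRPL41 (-0.34), MRPL34 (-0.30) and MRPS26 (-0.27) were lower. With a GC correction MRPL41 turned to 0.14 and the call of MRPS26 was lost (-0.03).

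Counts by time were uneven. At 5 hours 21 members were higher and 12 lower (40.9% of all genes called), at 1 day 24 and 8 (40%), at 2 days 48 and 5 (44.4%), and at 4 days 14 and 20 (43.9%), with member medians of 0.11, 0.11, 0.31 and -0.05. Library totals alone gave 13 higher and 14 lower at 5 hours and 8 and 29 at 4 days, and a GC correction 28 and 6 at 5 hours and 32 and 4 at 1 day. Without 4 days the mean gave 47 higher and 11 lower with a median of 0.20. Whether the line difference changed from 2 to 4 days was not tested.

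**Figure D3:**
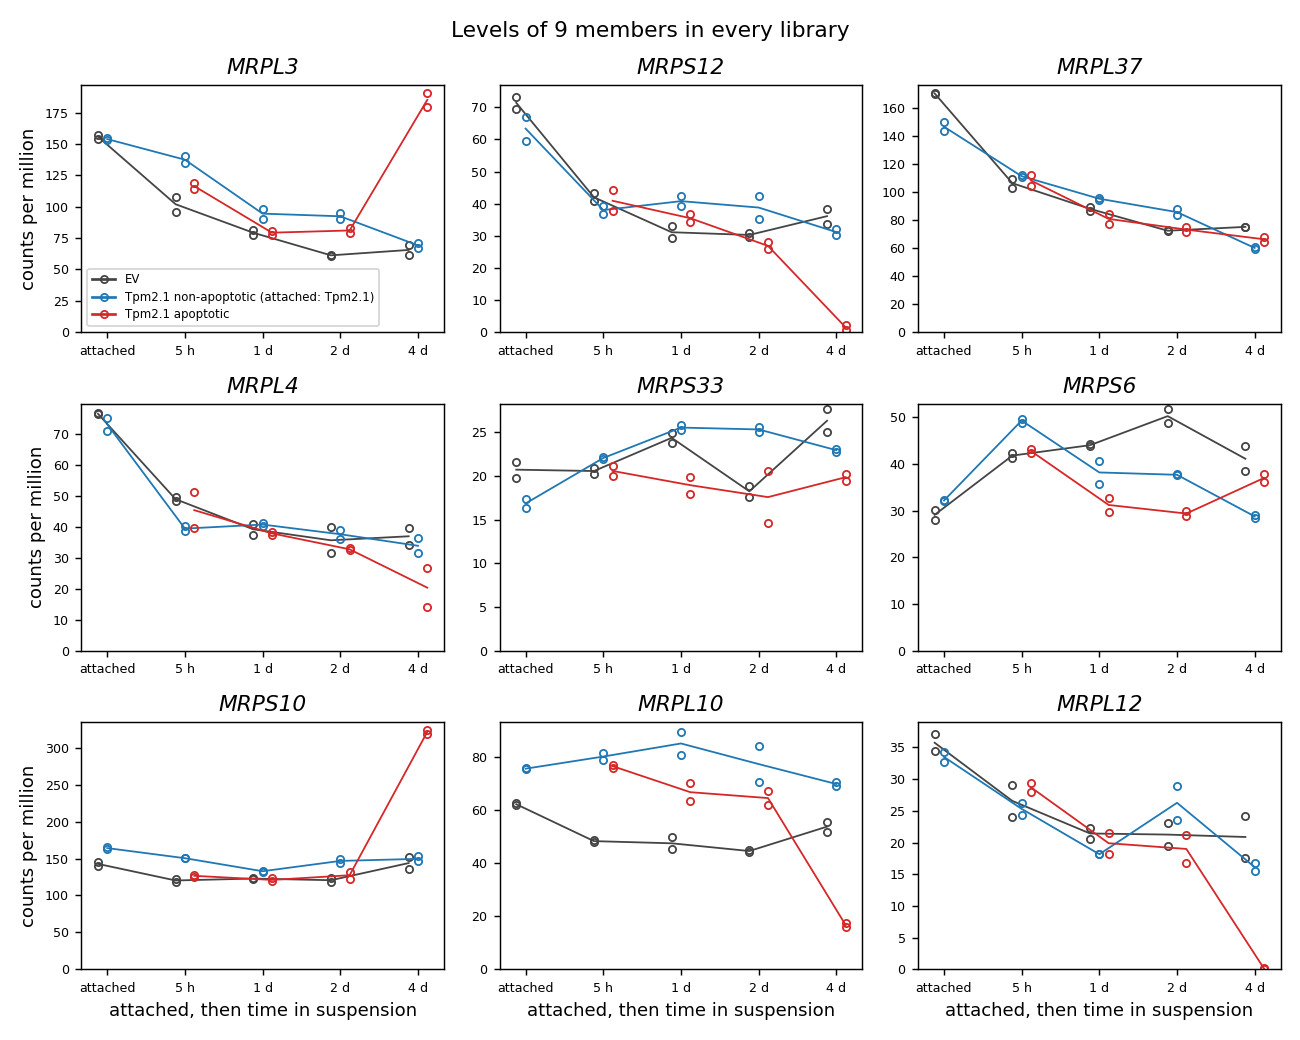
CPM of 9 members in each library, by series, with lines through group means and circles for the libraries. MRPL3, MRPL37 and MRPL4 are lower in suspension in both lines, MRPS6 is higher in all suspended EV libraries, MRPS33 in all non-apoptotic ones, MRPL10 separates the lines in suspension, and at 4 days the apoptotic libraries of MRPS10 and MRPL3 lie above and those of MRPS12, MRPL10 and MRPL12 below all others.

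Before 4 days the apoptotic fraction differed from the non-apoptotic one by small and mostly negative amounts. Over the mean of 5 hours, 1 day and 2 days 50 members were lower and 2 higher, or 66.7% called against 38.5% of all genes (21.8% of all genes lower), with a median of -0.17 against -0.02. No member passed 2-fold. The largest falls were in MRPL36 (-0.36), MRPS33 (-0.35), MRPL48 (-0.31), MRPS23 (-0.30) and MRPS6 (-0.29). MRPL36 (ENSG00000171421, chromosome 5, 1798386 to 1801366) stood at 38.7 to 44.0 CPM in the 6 non-apoptotic libraries and at 28.6 to 33.4 CPM in the 6 apoptotic ones, with no overlap. At 5 hours 15 members were lower and 6 higher (21.4% of all genes called), at 1 day 28 and 2 (19.3%) and at 2 days 46 and 1 (16.6%). Library totals alone gave 8 lower and 6 higher at 5 hours and 16 lower at 1 day, and a GC correction gave 15 and 3 at 5 hours.

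MRPS25 (ENSG00000131368, chromosome 3, 15042460 to 15065335), a mitochondria-specific small subunit protein, was the exception among members of at least 10 CPM. It was higher in apoptotic cells at 5 hours, with 110 and 118 against 81.3 and 83.8 CPM, at 1 day, with 86.4 and 90.0 against 63.1 and 67.6 CPM, and at 2 days, with 61.3 and 58.7 against 48.5 and 49.5 CPM. The difference was 0.40 ± 0.041 (edgeR adjusted p = 8.92e-10). Its level fell with time in both fractions. NR2C2, on the other strand, had 189% of its counts and was higher by 0.29. The other member called higher, MRPL38 (0.68), was below 10 CPM.

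At 4 days the fractions were far apart in both directions. In apoptotic cells 41 members were lower and 19 higher, 76.9% called against 72.1% of all genes (36.8% lower and 35.3% higher), and the median was -0.34 against 0.00. Of the members called, 28 were lower and 7 higher by more than 2-fold, and 26.7% and 14.9% of all genes were. A gene length correction gave 33 lower and 36 higher with a median of 0.09, whereas a GC correction gave 44 lower and 20 higher, not all of them the same genes. With that correction 29 members were lower and 8 higher in both fits, 7 turned from lower to higher, 6 turned from higher to lower, and 5 of either direction lost the call. Past 2-fold it left 14 lower and 6 higher, beside 10.5% and 8.71% of all genes, and 11 of the former but 0 of the latter were past 2-fold in both fits. The 7 that turned to higher were MRPL4, MRPL28, MRPL36, MRPL38, MRPL40, MRPL41 and MRPS34, and the 6 that turned to lower were MRPL1, MRPL47, MRPL50, MRPS6, MRPS30 and MRPS35. For MRPL4 the values were -0.73 without and 1.80 with the correction, and for MRPS34 -1.87 and 0.60.

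MRPL3, which had fallen in suspension in both lines, showed the largest positive difference at 4 days, with 180 and 191 CPM against 71.0 and 67.4 CPM in non-apoptotic cells, a difference of 1.42 ± 0.065 (edgeR adjusted p = 1.77e-21). At 2 days it had stood at 82.8 and 79.4 CPM in apoptotic cells. MRPS10 (ENSG00000048544, chromosome 6, 42206801 to 42217865) stood at 319 and 324 against 146 and 153 CPM, and in all other libraries of the study it lay between 118 and 166 CPM. MRPL19 was higher by 1.29, MRPL42 by 1.26, MRPL32 by 1.18 and MRPS22 by 1.08. With a GC correction MRPL3 was higher by 0.83, MRPS10 by 0.44, MRPL19 by 0.42, MRPL42 by 0.40, MRPS22 by 0.33 and MRPL32 by 0.26, each still called. The largest positive value was then that of MRPL21, 1.88 with and 0.12 without the correction.

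The opposite end was nearly lost from the apoptotic libraries. MRPL12 (ENSG00000262814, chromosome 17, 81703357 to 81707526), the stalk protein that also binds the mitochondrial RNA polymerase, had 1 and 2 counts in the apoptotic libraries of 4 days and 244 and 216 in the non-apoptotic ones. At these counts its ratio was 117-fold lower, with an exact interval of 39.9 to 572 (95%, counting error only). MRPS24, named after its values were seen, had 1 and 2 counts against 63 and 60, 31.4-fold lower (10.5 to 154). MRPL23, which lies at the exit of the tunnel, had 12 and 0 counts against 165 and 157, 20.6-fold lower (11.6 to 40.2), and MRPS12 had 24 and 8 against 441 and 446, 21.2-fold lower (14.9 to 31.2). MRPS26 changed by -3.30 ± 0.13, MRPL54 by -2.61 ± 0.21 and MRPL14 by -2.54 ± 0.13. With the correction for GC content MRPS26 stood at -0.98, MRPL54 at -0.70, MRPL14 at -1.50, MRPL23 at -2.40 and MRPS12 at -2.90. Each of these was lower by less and still called. MRPS24 stood at -4.90 without and -5.02 with the correction. At the earlier times MRPL12 did not pass the test (-0.05), though with that correction it did (-0.22).

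The change of the fraction difference at 4 days was tested directly. Against the mean of the earlier times it was negative in 36 members and positive in 23 (75.6% called against 69.6%), with a median of -0.17 against -0.05. With a length correction it was positive in 40 members and the median was 0.31. Within the apoptotic fraction, 52 members fell and 15 rose from 5 hours to 4 days (85.9% called against 77%). The split became 34 falls and 27 rises with a length correction, and 9 rises were called under library totals.

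GC content moved with the difference at 4 days. Across the 78 members Spearman's rho between GC content and the fold change of apoptotic against non-apoptotic cells was -0.73, and with gene length it was 0.35, over genes that share libraries. For the mean of earlier times the values were 0.17 and 0.09. With GC content, rho was also -0.36 for non-apoptotic against attached Tpm2.1 cells and -0.32 for non-apoptotic against suspended EV cells. For the change of the line difference from attached to suspension it was -0.41. At 4 days the 13 members under 40% GC had a median of 0.64, where all genes of that range had 0.93. The 11 members at or above 60% GC had -2.11, where all genes had -2.55. MRPS24, at 47.25% GC, lay apart from its range, in which members had a median of -0.11, and with a GC correction it stood at -5.02. MRPL12, at 64.59% GC, stood at -4.38 with the correction. The part of RNA quality and library composition in these values was not tested.

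**Figure D4:**
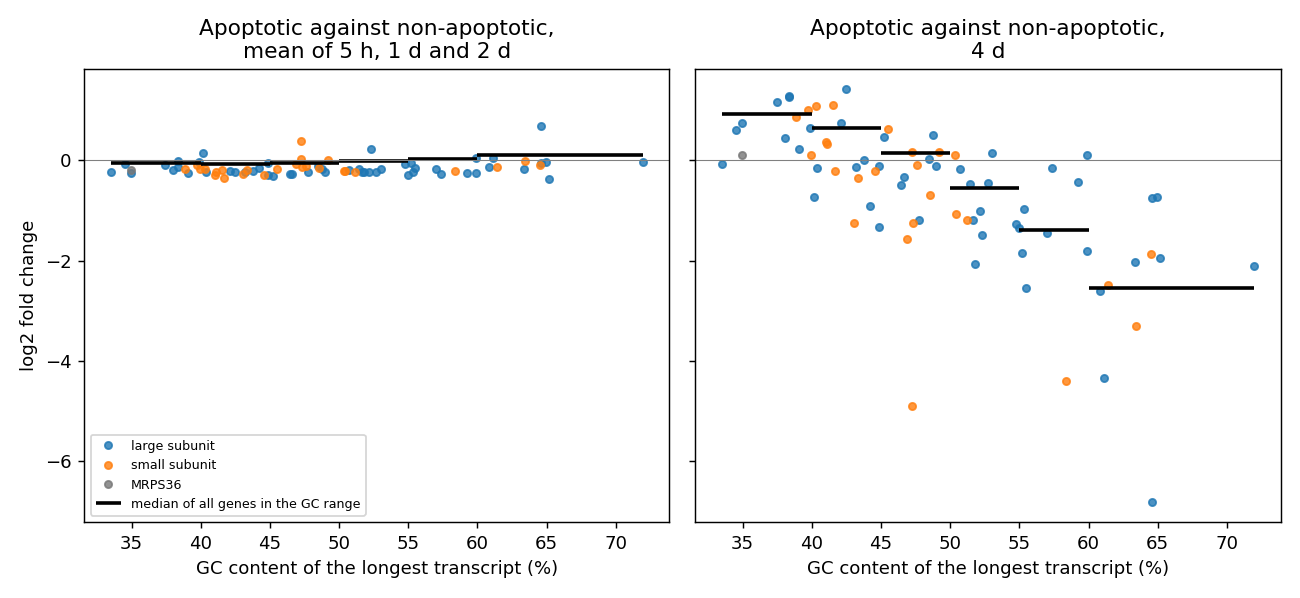
Log2 fold change of each member in apoptotic against non-apoptotic cells plotted over the GC content of its longest transcript, for the mean of the 3 earlier times (left) and for 4 days (right); black bars are medians of all genes in a GC range. At the earlier times members lie close to 0 at any GC content, and at 4 days they run from above 1 at low GC content down to -2 and below at high GC content, beside the medians of all genes.

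Members with a role of their own did not move as a unit. MRPL11, of the centre where translation factors bind, fell in EV (-0.67) and non-apoptotic cells (-0.53), and MRPL58, a peptidyl-tRNA hydrolase built into the large subunit, fell by 0.65 and by 0.51. MRPS30, a large subunit protein despite its symbol that was first described as a cell death protein, fell by 0.37 and by 0.27 and was higher by 0.61 in apoptotic cells at 4 days, where the GC correction turned it to -0.44 (edgeR adjusted p = 1.77e-06). MRPL41, described as a partner of p53 and BCL2, fell by 0.21 and by 0.37 and stood at -2.11 in apoptotic cells at 4 days. For MRPL41 the GC correction turned the latter to 1.16 (edgeR adjusted p = 8.16e-10), and the fall in non-apoptotic cells was lost with it (0.04). The 3 genes that share the symbol MRPS18, MRPS18A, MRPS18B and MRPS18C, all fell in EV cells (-0.43, -0.65 and -0.54) and MRPS18A and MRPS18B in non-apoptotic cells. In apoptotic cells at 4 days they stood at -0.15 (not called), -1.19 and 0.87, and with the GC correction at 1.19 (called), -0.80 (called) and 0.04 (not called). MRPL33 fell in EV cells (-0.27), did not pass in non-apoptotic cells (0.14) and was higher there than in EV cells in suspension (0.26). MRPS36 did not pass in EV cells (-0.03; -0.18 and called with the GC correction) and rose in non-apoptotic cells.

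Other genes of the pathway, from lists chosen with earlier results in view, moved in suspended EV cells as follows. Of 5 mitochondrial ribosomal protein genes with other symbols 3 fell and 1 rose, among them DAP3 (-0.82) and GADD45GIP1 (-0.86) against PTCD3 (0.19). Of 25 genes for assembly and modification of the ribosome 18 fell and 2 rose (median -0.46), with DHX30 at -0.69 and the rRNA chaperone ERAL1 at -0.58. Of 14 translation factors 8 fell and 3 rose, with the elongation factor TUFM at -0.70. Of 17 aminoacyl-tRNA synthetases 11 fell and 2 rose, with MARS2 at -1.05. Of 16 genes for transcription and RNA handling 12 fell and 2 rose, with TFB2M at -1.27, LRPPRC at -0.69 and the packaging factor TFAM at -0.66. In the non-apoptotic fraction these 5 lists gave 3 falls and 1 rise, 17 and 1, 7 and 4, 8 and 1, and 11 and 2.

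Of 9 regulators of mitochondrial gene programmes 7 fell and 2 rose in EV cells. MYC stood at 283 and 275 CPM in attached EV cells and at 92.8 to 165 CPM in the 8 suspended libraries, a change of -1.19 ± 0.044, and GABPB1, a subunit of GABP, changed by -0.83. PPARGC1A, the coactivator PGC-1 alpha, went the other way, from 2.14 and 2.23 CPM to between 6.54 and 22.5 CPM, by 2.57 ± 0.16. GABPA, another subunit of GABP, was higher too, with 33.9 and 35.9 CPM in attached EV cells and 41.6 to 51.9 CPM in suspended ones. In non-apoptotic cells 7 fell and 2 rose as well, with MYC at -0.87 and NRF1 at -0.76.

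Cytosolic ribosomal protein genes, the nearest counterpart, fell in 72 of 83 cases in EV cells (7 rose, median -0.55) and in 59 in non-apoptotic cells (9 rose, median -0.34). They were lower in 77 cases in apoptotic cells before 4 days (3 higher). Nuclear genes of the respiratory chain, whose products join those made by the mitochondrial ribosome, fell in 42 and rose in 9 of 74 in EV cells (median -0.20), and fell in 27 and rose in 26 in non-apoptotic cells (median -0.07). Whether the members differ from these lists was not tested.

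The messenger RNAs that the mitochondrial ribosome translates took different courses in the series. Over the mean of 4 times all 13 rose in suspended EV cells (median 0.66), led by MT-ND4 (1.07), a subunit of complex I. By time 12 rose at 5 hours and 13 at 1 and at 2 days, whereas at 4 days none rose and 10 fell (median -0.56). In non-apoptotic cells 12 of 13 fell over the mean of times (median -0.71), with MT-ND4 at -0.66, and 10 or 11 fell at each time. All 13 were higher in apoptotic cells before 4 days, with a median of 1.53. Their share of counts was 1.61% in attached EV cells and 3.14%, 4.23%, 3.97% and 1.20% in suspended EV cells, 2.16% in attached Tpm2.1 cells, 1.53%, 1.48%, 1.27% and 1.40% in non-apoptotic cells, and 4.61%, 4.23%, 3.40% and 6.13% in apoptotic cells at the 4 times, with an SD of at most 1.05 points. A list of long noncoding RNAs, chosen as nuclear-retained, moved too. It went from 0.081% and 0.091% of counts in attached EV and Tpm2.1 cells to group means between 0.128% and 0.246% in suspension. NORAD, whose retention in the nucleus is not shown here, was highest of the list in attached EV cells (619 and 620 CPM). It stood at 792 and 797 CPM in EV cells at 1 day. NEAT1 went from 140 and 138 to 995 and 1026 CPM there, and MALAT1 from 35.6 and 33.5 to 399 and 433 CPM. The part of either shift in the members' results was not tested.

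Markers of other cell types moved with suspension and were low, except COL1A1, which reached a group mean of 100 CPM in EV cells at 5 hours. The summed level of PECAM1, CDH5 and VWF was 2.91 to 3.46 CPM in attached libraries, 4.28 to 12.1 in EV, 3.02 to 10.6 in non-apoptotic and 2.41 to 11.9 in apoptotic libraries, with CDH5 at 0 to 7 counts. That of COL1A1, DCN and PDGFRB was 21.4 to 24.6 CPM in attached libraries and 27 to 112 CPM in suspended EV libraries, 40.5 to 85.1 in non-apoptotic and 38.8 to 80.7 in apoptotic ones. Epithelial markers, of which CDH1 was near 0, summed to 675 to 807 CPM in attached, 384 to 641 in EV, 302 to 486 in non-apoptotic and 165 to 454 CPM in apoptotic libraries. Leukocyte markers summed to at most 0.436 CPM in any library. The part of other cells in the members' results was not tested.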

How the data were processed

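Messenger RNA was captured with poly-T beads and primed with random hexamers, per the labels' protocols, in 28 libraries of 14 groups. The authors deposited raw read counts per gene, which carry no scaling, and FPKM values, computed by the authors per kilobase of gene and by library size. Reads were set on hg38, and DESeq2 is named without a role, per the submitters' processing notes. Neither the aligner nor the counter, nor its use of strand, is named in the labels.

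The counts of all libraries entered a quasi-likelihood fit in edgeR 4.0.16, run in R 4.3.3 (TMM scaling, filterByExpr, 1 mean per group, 14 residual degrees of freedom). CPM uses the scaled totals. FPKM serves only to compare levels between genes. Named members are, per comparison, up to 5 each way with the largest called change and a group mean of at least 10 CPM, plus those with a role of their own, and others are said to be chosen later. GC content came from GENCODE transcripts for 17183 genes, and its trend or that of length was removed as an offset by lowess (span 0.2). Alternatives were also DESeq2 1.42.0, other scaling, no filter, a replicate block and each library left out. Leaving the apoptotic 4 day libraries out of the fit, or 4 days out of the means, was chosen after seeing the data. The fit was tested on simulated data. The members and lists were chosen with earlier results of these data known. Counting intervals are exact, for counting error only.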

Additional observations from a re-analysis of the deposited data

Results flagged for a closer look

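The difference between lines was not the same in suspension as in attached cells, by a direct test of the change (edgeR's quasi-likelihood test with Benjamini-Hochberg adjustment). Over the mean of 4 times it was more positive in suspension in 35 members and more negative in 3. That is 48.7% of the members called against 33.5% of all genes. Without Tpm2.1 attached replicate 2 the positive count was 22. The change was not tested at single times. At 2 days the members' sum stood at 66.1% of attached cells in EV and at 82.4% in non-apoptotic cells. At 4 days it stood at 70.2% in both. The largest log2 changes were 0.65 for MRPS28, 0.57 for MRPS23 and 0.49 for MRPL47, and the negative ones were -0.43 for MRPS25, -0.37 for MRPS6 and -0.32 for MRPL34. MRPS28 was low, at 8.0 to 10.5 CPM in attached libraries and 3.6 to 7.9 CPM in suspended EV and non-apoptotic ones. The change of MRPS23 includes a difference of -0.63 between the attached lines. The Tpm2.1 cells in suspension were the non-apoptotic fraction, so line and separation cannot be told apart. Across the members, Spearman's rho between GC content and the change of the line difference was -0.41.

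The difference between fractions at 4 days was not that of the earlier times, by the same kind of test. It was more positive in 23 members and more negative in 36, or 75.6% of the members called against 69.6% of all genes. MRPL3 changed by 1.65, MRPL19 by 1.42 and MRPS10 by 1.30, whereas MRPL12 (-6.75), MRPL23 (-4.40) and MRPS12 (-4.19) changed the other way. The latter 3 had few or no counts in the apoptotic libraries of 4 days, so the size of their changes is uncertain. With 2 libraries per group, single libraries were not examined as outliers.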

How the results depend on the processing

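Over the mean of times, the counts of falls in EV and non-apoptotic cells and of lower members in the apoptotic fraction stayed within 1.5 times under all settings run. Member counts of these settings come without the share of all genes called, except past 2-fold with the GC correction at 4 days. With library totals alone, rises from 5 hours to 4 days numbered 6 in EV, 3 in non-apoptotic and 9 in apoptotic cells, in place of 10, 8 and 15. Without the count filter 1 member was higher in attached Tpm2.1 cells and 3 rose from 5 hours to 4 days in non-apoptotic cells, and the latter count was 5 with a GC correction or DESeq2. Attached Tpm2.1 cells were lower in 23 members with a GC correction, 17 with a length correction, 18 in a fit without the apoptotic 4 day libraries, and 22 (6 higher) when fitted alone. MRPL41 in non-apoptotic against EV cells turned to 0.14 with a GC correction, and in apoptotic cells at 4 days 7 members turned from lower to higher and 6 the other way.

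A length correction gave 36 higher members in apoptotic cells at 4 days (median 0.092), 40 with a more positive fraction difference at 4 days (median 0.31), and 27 rises and 34 falls from 5 hours to 4 days in apoptotic cells. The cause was not tested. With single libraries left out, higher counts ranged from 1 to 2 between attached lines, from 4 to 7 in non-apoptotic cells, from 22 to 38 for the change of the line difference and from 4 to 8 for 5 hours to 4 days in non-apoptotic cells.

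Same-numbered libraries did not deviate together (correlations from -0.08 to 0.05 over 91 pairs of groups), so numbers were not taken to pair libraries. With the replicate block, 20 members were higher and 41 lower in apoptotic cells at 4 days, and the block moved no member count past 1.5 times. Depth limits MRPL12, MRPL23, MRPS12 and MRPS24 at 4 days.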
